A study of Mus musculus with 10 samples.

Results

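The amylin and calcitonin receptor family was followed through RNA-seq libraries of sorted mouse islet cells. Its members here are 9 genes chosen by name: the peptide genes Iapp, Adm, Calca and Calcb, the receptor genes Calcr and Calcrl, and the receptor activity-modifying protein genes Ramp1, Ramp2 and Ramp3. All 9 were listed among the 19213 genes of the deposited table, and 5 of them (Iapp, Adm, Calca, Ramp1 and Ramp2) reached 1 RPKM (reads per kilobase of gene, relative to the size of the library) in at least 2 libraries and entered the test across genes.

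There were 2 delta libraries (1 male and 1 female), 3 alpha libraries (2 male and 1 female) and 5 beta libraries (2 male and 3 female) from adult mice. Every animal was triple transgenic: beta cells carried the nuclear reporter mIns1-H2b-mCherry, and a floxed YFP allele was switched on by Sst-Cre for delta cells or by Gcg-cre for alpha cells. YFP therefore marks cells in which the Sst or Gcg driver has ever been active, and mCherry marks cells that use the mouse Ins1 promoter. Each pool held the islets of 10 to 12 animals of 1 sex, which were kept overnight at 5.5 mM glucose, dissociated with trypsin and sorted; beta cells came out of the delta or alpha cell sorts. Which libraries came from 1 pool is not in the labels, so p-values measure the spread between these libraries only, which may be technical in part.

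Amylin, the product of Iapp, is a beta cell peptide that is stored and released with insulin, slows gastric emptying and acts in the brainstem on food intake. It belongs with calcitonin, the calcitonin gene-related peptides (CGRP) and adrenomedullin to a family of peptides with a disulfide ring and an amidated end. Calcr alone is the calcitonin receptor, and Calcr together with a Ramp protein is an amylin receptor. Calcrl needs a Ramp: with Ramp1 it is the CGRP receptor, and with Ramp2 or Ramp3 an adrenomedullin receptor.

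Library totals recovered from the steps of the RPKM values ran from 18570481 to 20209291 reads in delta libraries, 16688097 to 17441439 in alpha libraries and 17755859 to 26684086 in beta libraries. Spearman correlations across genes were 0.959 to 0.991 between libraries of 1 cell type and 0.828 to 0.908 between cell types. The 4 delta cell markers summed to 54420 to 62970 RPKM in delta libraries, 1456 to 3283 in alpha libraries and 109 to 966 in beta libraries, with Sst in alpha libraries at 3.23% of its delta mean. The 6 alpha cell markers summed to 21850 to 23930 RPKM in delta libraries, 249900 to 279600 in alpha libraries and 695 to 3050 in beta libraries, and Gcg in delta libraries stood at 8.72% of its alpha mean. The 7 beta cell markers summed to 2528 to 3606 RPKM in delta libraries, 1942 to 2431 in alpha libraries and 212800 to 431900 in beta libraries, so each label fitted its markers. The 3 pancreatic polypeptide cell markers summed to 44170 to 44800 RPKM in delta libraries, 9604 to 15250 in alpha libraries and 808 to 1560 in beta libraries. Ppy and Pyy made up almost all of that sum. The third marker, Sertm1, was instead highest in alpha libraries, at 1.79 RPKM in delta, 7.02 in alpha and 0.0506 in beta libraries. The part that pancreatic polypeptide cells play in the values below was not tested, and in sorted bulk RNA fewer expressing cells and less RNA per cell cannot be told apart.

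RefSeq windows of 250 bases upstream of a transcript start (GRCm38.p6) were available for 7 of the 9 members. Those of Iapp, the most abundant member, and Ramp1, the member that was higher in delta libraries than in both other types, are shown 5′ to 3′ with every TAAT or its reverse complement ATTA in capitals. TAAT is the core letters of the sites that homeodomain proteins such as Pdx1 bind. The Iapp window is on the plus strand at chr6:142298175-142298424, and the Ramp1 window is on the plus strand at chr1:91179572-91179821.
Iapp: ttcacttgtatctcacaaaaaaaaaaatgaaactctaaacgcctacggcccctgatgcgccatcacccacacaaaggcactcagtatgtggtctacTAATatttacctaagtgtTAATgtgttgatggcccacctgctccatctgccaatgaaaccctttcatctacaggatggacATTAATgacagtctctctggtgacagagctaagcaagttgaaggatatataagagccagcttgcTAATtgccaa
Ramp1: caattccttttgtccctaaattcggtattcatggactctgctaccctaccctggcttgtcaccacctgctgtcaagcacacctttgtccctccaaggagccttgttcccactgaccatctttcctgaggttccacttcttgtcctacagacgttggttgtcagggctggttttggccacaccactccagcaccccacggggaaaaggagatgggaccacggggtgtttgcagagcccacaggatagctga
The Iapp window held 5 matches over both strands, a pair of which overlap as ATTAAT, and the Ramp1 window held 0. Among 32851 RefSeq windows of the same length, 54.9% held at least 1 match and 5.54% held 5 or more. Adm had 2 matches and Calca 1, Calcrl and Ramp3 had 0, and the Calcr windows at alternative starts had 0 and 3. A match is a description of letters and not a bound site.

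Iapp was by far the most abundant member, and delta libraries held it at 52.2% of the beta mean while alpha libraries held it at 4.17%. Iapp (chromosome 6, 142298423 to 142303961, plus strand, GRCm38, protein coding) measured 29094 and 28799 RPKM in delta libraries. Alpha libraries had 2233, 2599 and 2098 RPKM, and beta libraries had 63052, 51614, 56827, 52244 and 53448 RPKM. The 3 cell types formed 3 separate bands with no overlap, and the pair of delta libraries lay close together. Means were 28946 ± 209 RPKM in delta (SD, n = 2), 2310 ± 259 in alpha (n = 3) and 55437 ± 4709 in beta libraries (n = 5). Iapp reads made up 2.02% and 2% of all reads in delta libraries, 0.155%, 0.181% and 0.146% in alpha libraries and 3.59% to 4.38% in beta libraries.

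**Figure D1:**
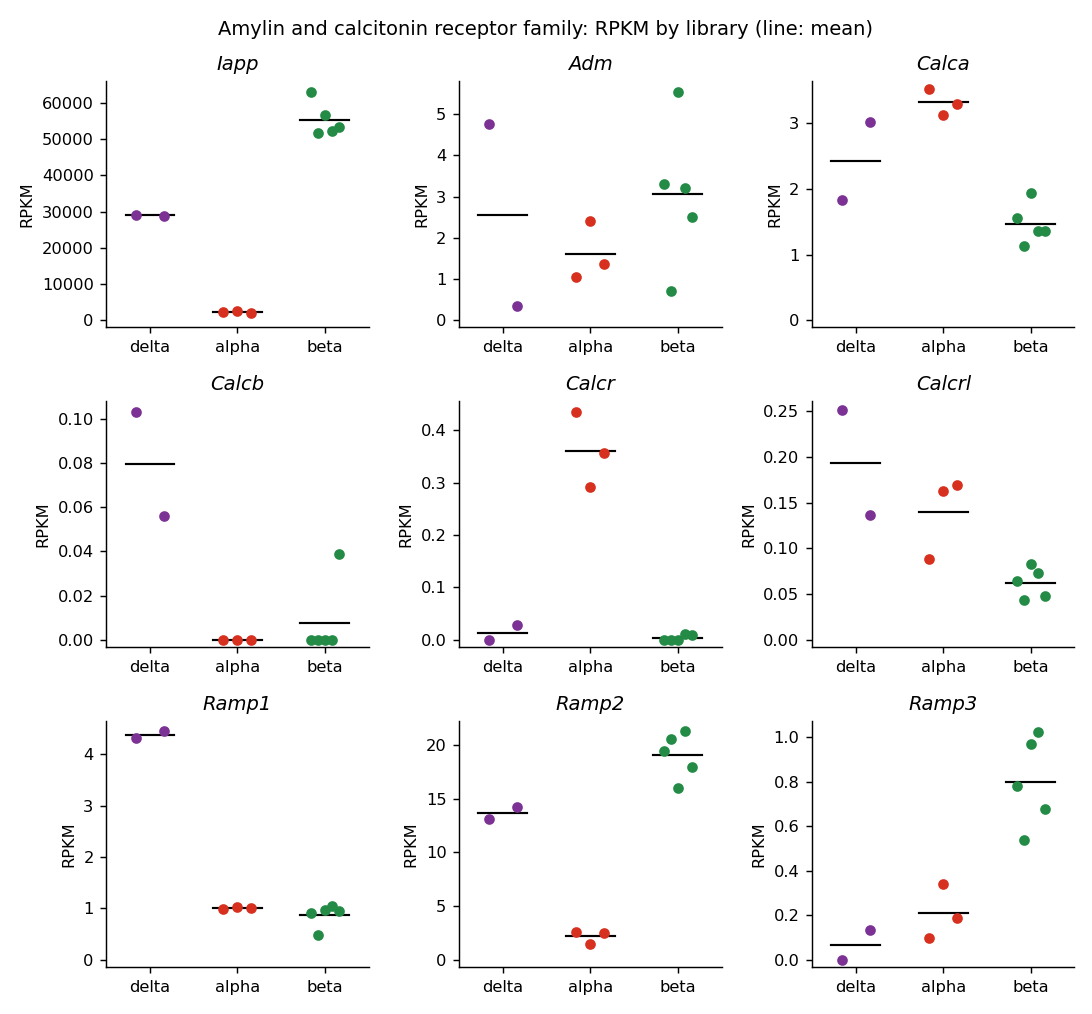
RPKM of each family member in every library (points), by cell type from left to right as delta, alpha and beta, with the group mean as a line; each panel has its own linear axis. Iapp falls into 3 bands near 28946, 2310 and 55437 RPKM, Ramp1 is high in the 2 delta libraries, and Calcr is seen mainly in the 3 alpha libraries.

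Fold changes here are log2 differences of RPKM + 1 from limma, with p-values adjusted over the 12700 genes tested. Iapp differed by -0.95 ± 0.186 (SE) between delta and beta (adjusted p = 0.00279), by -4.63 ± 0.166 between alpha and beta (adjusted p = 6.51e-08) and by 3.68 ± 0.204 between delta and alpha libraries (adjusted p = 1.71e-06). The order was therefore alpha, delta, beta from low to high, with each neighbouring pair called. Under other processing the calls that involve delta libraries were not all kept. The difference between delta and beta turned to 0.096 after quantile scaling (adjusted p = 0.765). That scaling keeps only the ranks of genes within a library. Among the genes named here, only Sst lay above Iapp in both delta libraries. In beta libraries only Ins2, or Ins2 and Ins1, lay above it. The scaled value therefore cannot show how far apart the Iapp levels are. With no filter on low values the difference between delta and beta stayed at -0.949 with a wider SE of 1.121 (adjusted p = 0.551). That between delta and alpha had an adjusted p of 0.0577. The Iapp values are the same in that fit, so the wider SE does not come from them. With the filter but without the mean-variance trend, the SE between delta and beta was 0.1 (adjusted p = 6.91e-05 by limma).

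Iapp in delta libraries was far above the beta cell markers when each is set against its beta mean. On that scale Ins1 stood at 1.02% in delta and 0.692% in alpha libraries, and Ins2, the other mouse insulin gene, stood at 1.03% in delta and 0.752% in alpha libraries. Mafa, a beta cell transcription factor, stood at 1.1% in delta and 0.82% in alpha libraries, and Slc2a2, the glucose transporter GLUT2, at 2.49% in delta and 1.42% in alpha libraries. The highest of the 7 markers was Nkx6-1, at 6.99% in delta and 9.15% in alpha libraries. The ratio of Iapp to Ins2 RPKM was 13.7 and 9.61 in delta libraries, 1.09, 1.32 and 1.3 in alpha libraries and 0.174 to 0.301 in beta libraries, with no overlap between the types.

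**Figure D2:**
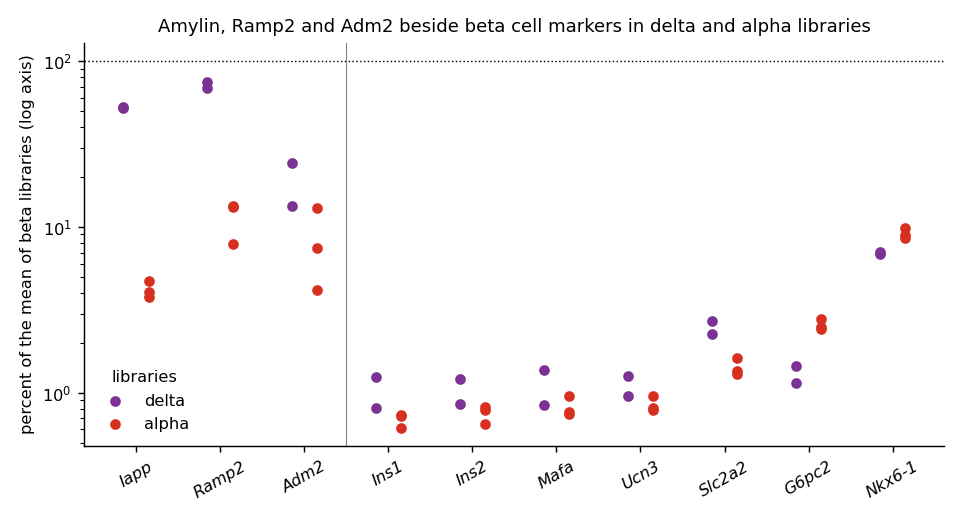
Level in each delta and alpha library as a percent of the mean of the 5 beta libraries (log axis; dotted line at 100%) for Iapp, Ramp2 and Adm2, left of the vertical line, and for the 7 beta cell markers, right of it. Iapp sits at 52.2% of the beta mean on average in delta libraries, against 1.03% for Ins2, and at 4.17% in alpha libraries, against 0.752% for Ins2.

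Iapp lies within the body of Slco1a5, an organic anion transporter gene on the opposite strand, with 0 exon bases shared in GENCODE. The library kit does not mark the strand. Slco1a5 averaged 0.401 RPKM in delta, 0.0583 in alpha and 1.49 in beta libraries, the same order as Iapp at a far lower level, and whether Iapp reads enter its value was not tested.

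Adm encodes adrenomedullin, a vasodilator peptide that many cell types make under low oxygen. It was low and spread widely within each cell type, and no comparison was called. The delta libraries had 4.77 and 0.351 RPKM, the alpha libraries 1.04, 2.4 and 1.37, and the beta libraries 3.31, 0.711, 5.55, 3.21 and 2.5. Each pair of groups overlapped. The log2 difference was -0.51 ± 0.446 between delta and beta (adjusted p = 0.361 by limma), -0.79 ± 0.399 between alpha and beta (adjusted p = 0.121) and 0.29 ± 0.488 between delta and alpha (adjusted p = 0.68). The difference between alpha and beta passed after quantile scaling (-0.966, adjusted p = 0.0274) and with libraries blocked by adjacent title numbers in place of the sex term (-0.753, adjusted p = 0.0223), and those that involve delta libraries changed sign when 1 library was left out. Adm had the largest sex term of the 5 tested members, at 0.92 for male over female libraries, and it was not called (adjusted p = 0.77 by limma); male libraries ran from 1.04 to 5.55 RPKM and female libraries from 0.351 to 3.21 RPKM. Adm (chromosome 7, 110627661 to 110629820, plus strand) lies within the antisense transcript Gm28863, with 0 exon bases shared.

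Calca was higher in alpha than in beta libraries. The gene gives rise to calcitonin and to the alpha form of CGRP by alternative splicing, and a value per gene cannot split these transcripts. It had 1.83 and 3.03 RPKM in delta libraries, 3.52, 3.13 and 3.3 in alpha libraries and 1.56, 1.14, 1.94, 1.37 and 1.36 in beta libraries. All alpha libraries lay above all beta libraries, while delta replicate 1 fell within the beta range and delta replicate 2 just under the lowest alpha library. The log2 difference was 0.80 ± 0.148 between alpha and beta (adjusted p = 0.00161 by limma), 0.45 ± 0.165 between delta and beta (adjusted p = 0.0447) and -0.35 ± 0.181 between delta and alpha (adjusted p = 0.16). The call between delta and beta was lost in 8 of 10 fits with 1 library left out, with a difference of 0.1 without delta replicate 2 and 0.78 without delta replicate 1, and after quantile scaling the difference turned to -0.011. Under median-ratio scaling the alpha level was called above the delta level (-0.567 for delta over alpha, adjusted p = 0.0481). As a share of its alpha mean, Calca averaged 73.2% in delta and 44.4% in beta libraries, and Gcg 8.72% in delta and 0.578% in beta libraries.

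Calcb, which encodes the beta form of CGRP and lies 82.3 kb from Calca on chromosome 7, was near or below detection. It rested on 2 and 1 reads in the delta libraries, 0 reads in each alpha library, and 1 read in beta replicate 5 with 0 in the other beta libraries. A count of 0 allows up to 3 reads, which is up to 0.187 RPKM in an alpha library, so a difference of this size is at the limit of detection. It passed in delta over beta and over alpha in the fit without a filter on low values (adjusted p = 0.012 and 0.0135 by limma), but neither passed without delta replicate 1 (adjusted p = 0.137 and 0.146) or without the mean-variance trend (0.0522 and 0.0589), the second was also lost with the block on title numbers (0.0902), and no fold is given.

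Ramp1 was called higher in delta libraries than in both other types. Ramp1 protein carries Calcrl to the cell surface and gives it CGRP binding. The gene (chromosome 1, 91179822 to 91225196, plus strand) had 4.31 and 4.45 RPKM in delta libraries, 0.991, 1.02 and 1.01 in alpha libraries and 0.909, 0.488, 0.969, 1.04 and 0.955 in beta libraries. Both delta libraries were over 4 times as high as any other library, and the alpha range lay inside the beta range. The log2 difference was 1.53 ± 0.133 between delta and beta (adjusted p = 1.85e-05 by limma), 1.43 ± 0.145 between delta and alpha (adjusted p = 7.37e-05) and 0.10 ± 0.119 between alpha and beta (adjusted p = 0.509; -0.092 after quantile scaling). The sum of 5 Schwann cell markers moved with Ramp1, at 9.92 to 10.3 RPKM in delta, 4.84 to 5.33 in alpha and 2.21 to 2.89 in beta libraries, with Sox10 at most 0.0211 RPKM in any library. The part of these cells in the result was not tested.

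Ramp2 was the most abundant Ramp transcript by RPKM in each of the 10 libraries and was low in alpha libraries. Its protein pairs with Calcrl as an adrenomedullin receptor and with Calcr as an amylin receptor. The delta libraries had 13.1 and 14.3 RPKM, the alpha libraries 2.54, 1.49 and 2.5, and the beta libraries 19.4, 20.5, 16, 21.3 and 17.9. The 3 types did not overlap, although the gap between the higher delta and the lowest beta library was small. The log2 difference was -2.62 ± 0.132 between alpha and beta (adjusted p = 5.01e-07 by limma), 2.20 ± 0.162 between delta and alpha (adjusted p = 9.4e-06) and -0.42 ± 0.148 between delta and beta (adjusted p = 0.0384). The last of these was lost in 6 of 10 fits with 1 library left out, with differences of -0.468 to -0.377 over the 10 fits, and with a pseudocount of 0.1 (adjusted p = 0.076). Ramp2 (chromosome 11, 101246028 to 101259546, plus strand) shares 1103 exon bases with Vps25, an endosomal sorting gene on the same strand, in GENCODE; Vps25 averaged 55.2 RPKM in delta, 51 in alpha and 81.2 in beta libraries, and how reads in the shared bases were counted is not stated in the labels. The length behind the Ramp2 RPKM, recovered as 872 bases, is shorter than the 3301 bases of its GENCODE exons. The Ramp2 level, its rank over Ramp1 in delta and alpha libraries and the Ramp shares rest on that length. By reads, Ramp1 lay above Ramp2 in delta libraries (250 to 263 against 231) and in alpha libraries (50 to 53 against 22 to 38). In beta libraries Ramp2 had 248 to 444 reads and Ramp1 36 to 77.

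Ramp3, whose protein can partner both receptors, was seen mainly in beta libraries, at 1.02 RPKM or less. It had 0 and 0.132 RPKM in delta libraries, 0.0982, 0.34 and 0.188 in alpha libraries and 0.781, 0.536, 0.969, 1.02 and 0.675 in beta libraries. Every beta library lay above every delta and alpha library. These values rest on 0 and 3 reads in delta libraries, 2, 7 and 4 in alpha libraries and 16 to 29 in beta libraries. In the same fit without the filter on low values, over 19213 genes, Ramp3 was lower in delta than in beta libraries (log2 difference -0.75, adjusted p = 0.00216 by limma) and lower in alpha than in beta libraries (-0.58, adjusted p = 0.00388). Pooled reads in delta, relative to depth, were 0.081 times those in beta (exact 95% interval 0.0165 to 0.243, counting error only). The sum of 8 immune cell markers was highest in the same libraries, at 75.6 to 88.8 RPKM in delta, 22.6 to 41.3 in alpha and 106.7 to 193.9 in beta libraries. Lyz2 and Tyrobp, myeloid markers among them, were at 0 in both delta libraries and between 2.88 and 8.52 RPKM in beta libraries. C1qa, a complement gene of macrophages, was instead highest in delta, at 65.6 RPKM in delta, 14.2 in alpha and 28.9 in beta libraries, and the part of these cells in the Ramp3 values was not tested.

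The 3 Ramp transcripts together summed to 17.4 and 18.9 RPKM in delta libraries, 3.63, 2.85 and 3.69 in alpha libraries and 18 to 23.3 in beta libraries. Delta and beta libraries thus overlapped in the total, and they differed in its makeup. Ramp1 was 24.7% and 23.6% of the sum in delta libraries, 27.3%, 35.7% and 27.2% in alpha libraries and 2.26% to 5.4% in beta libraries. The delta and alpha shares lay well above the beta shares, by way of a high Ramp1 level in delta libraries and a low Ramp2 level in alpha libraries.

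**Figure D3:**
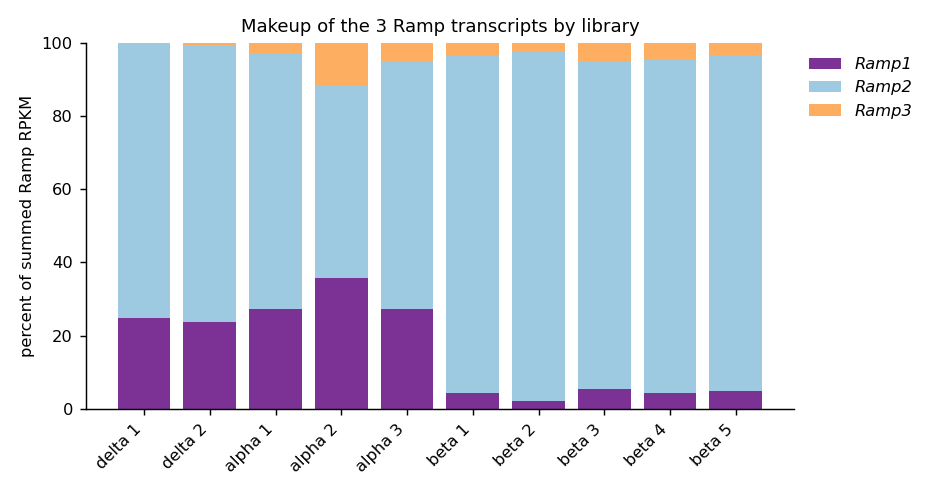
Share of Ramp1, Ramp2 and Ramp3 in the summed Ramp RPKM (y axis, percent) of each library, with delta, alpha and beta libraries from left to right. Ramp1 takes 23.6% or more in delta and alpha libraries and at most 5.4% in beta libraries, and Ramp3 is largest in alpha replicate 2 at 11.9%, on 7 reads.

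Calcr, the receptor that binds calcitonin and, with a Ramp, amylin, was detected almost wholly in alpha libraries. It had 0 and 2 reads in delta libraries, 28, 19 and 24 in alpha libraries, and 0, 0, 0, 1 and 1 in beta libraries. In RPKM this was 0 and 0.0279 in delta libraries, 0.434, 0.291 and 0.356 in alpha libraries and at most 0.0111 in beta libraries. Each alpha library was over 10 times as high as any other library, at a level still under 1 RPKM. Pooled over libraries and relative to depth, reads in alpha were 82.4 times those in beta (exact 95% interval 22 to 693, counting error only), and those in delta were 0.0371 times those in alpha (exact 95% interval 0.0044 to 0.139). Without the filter on low values, the log2 difference was 0.44 between alpha and beta (adjusted p = 2.5e-05 by limma), -0.42 between delta and alpha (adjusted p = 0.000132) and 0.02 between delta and beta (adjusted p = 0.787). Calcr (chromosome 6, 3685680 to 3764714, minus strand) hosts the microRNA genes Mir653 and Mir489. The sum of 9 stellate and mesenchymal cell markers was also highest in alpha libraries, at 1.09 to 1.35 RPKM in delta, 3.59 to 4.42 in alpha and 0.305 to 1.68 in beta libraries. Single markers were split: Col1a2, Pdgfrb, Acta2, Rgs5 and Dcn had their highest mean in alpha libraries. Col1a1 and Col3a1 had theirs in beta, and Lum and Pdgfra in delta libraries. Col1a2, a collagen gene, averaged 0.445 RPKM in delta, 2.17 in alpha and 0.101 in beta libraries, and Rgs5, a pericyte gene, 0.278 in delta, 0.962 in alpha and 0.25 in beta libraries. Pdgfra was at most 0.0178 RPKM in any library, and the part of these cells in the Calcr values was not tested.

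Calcrl, the receptor for CGRP and adrenomedullin and a gene known for its role in vessels, was low throughout. It had 0.251 and 0.136 RPKM in delta libraries on 24 and 12 reads, 0.0886, 0.163 and 0.169 in alpha libraries on 7, 13 and 14 reads, and 0.0432 to 0.0832 in beta libraries on 5 to 8 reads. Delta and alpha libraries overlapped, and each of them lay above the highest beta library, alpha replicate 1 by a small margin. Without the filter on low values the log2 difference was 0.16 between delta and beta (adjusted p = 0.0156 by limma), and this call was lost without delta replicate 1 (adjusted p = 0.192); it was 0.09 between alpha and beta (adjusted p = 0.0748). The difference between alpha and beta passed under median-ratio scaling (adjusted p = 0.0396) and without delta replicate 1 (0.0336), delta replicate 2 (0.0339) or alpha replicate 1 (0.0177). The 12 endothelial markers summed to 12 to 15.9 RPKM in delta, 8.19 to 11.4 in alpha and 6.61 to 13 in beta libraries, with at most 2 of them at 0 in a library (Tie1 and Emcn in delta replicate 1). Most of the sum was Esam, at 7.56 RPKM in delta, 6.12 in alpha and 3.87 in beta libraries, and Egfl7, at 4.32 in delta, 1.07 in alpha and 1.55 in beta libraries. Cdh5, the endothelial cadherin gene, averaged 0.231 RPKM in delta, 0.345 in alpha and 0.493 in beta libraries, and the part of these cells in the Calcrl values was not tested. In alpha libraries Calcr RPKM were 4.9, 1.79 and 2.1 times those of Calcrl.

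**Figure D4:**
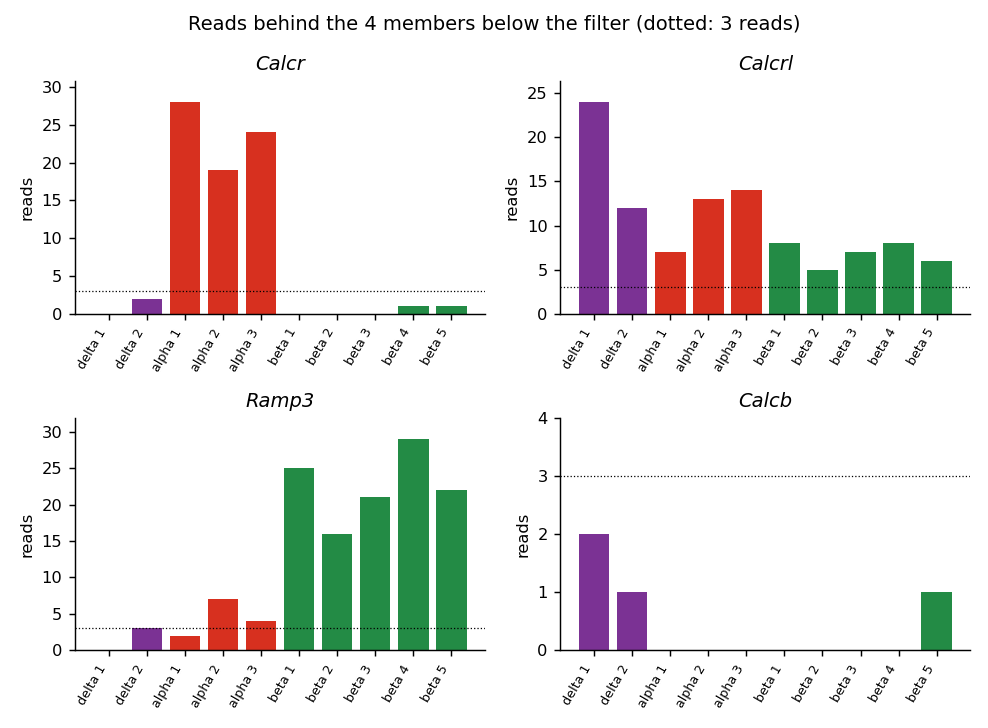
Recovered reads (y axis) behind the 4 members below the filter in each library (x axis; delta, alpha and beta from left to right), with a dotted line at 3 reads. Calcr has 19 to 28 reads in alpha libraries, Ramp3 has 16 to 29 in beta libraries, Calcrl has its most, 24, in delta replicate 1, and Calcb has at most 2.

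Counted over the 5 tested members, 2 were called higher in delta than in beta libraries (Ramp1 and Calca) and 2 lower (Iapp and Ramp2), beside 37.4% of all tested genes called higher and 13.3% called lower. Between alpha and beta libraries 1 was called higher (Calca) and 2 lower (Iapp and Ramp2), beside 23.7% and 30.3% of all genes. Between delta and alpha libraries 3 were called higher (Iapp, Ramp1 and Ramp2) and 0 lower by limma (0 at an unadjusted p under 0.05 as well), beside 32.1% and 5.89% of all genes. The members' median log2 difference was -0.42, -0.79 and 1.43 in these comparisons, against 0.25, -0.02 and 0.26 over all tested genes. Median-ratio scaling took these medians of all genes to -0.001, -0.012 and -0.011, and it changed the split between delta and beta to 3120 genes higher and 3096 lower, beside 4750 and 1692 as deposited. The called differences of Iapp, Ramp1 and Ramp2 kept their direction and their calls under that scaling. Of the 4 members under the filter, in the fit without it, 2 passed as higher (Calcrl and Calcb) and 1 as lower (Ramp3) between delta and beta, beside 27.4% and 10.2% of all genes, but Calcb did so on the 3 delta reads alone. Between alpha and beta, 1 was higher (Calcr) and 1 lower (Ramp3), beside 19% and 22.2%, and between delta and alpha 1 was higher (Calcb) and 1 lower (Calcr), beside 23% and 5.15%. These comparisons share libraries in pairs and are not independent of each other.

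**Figure D5:**
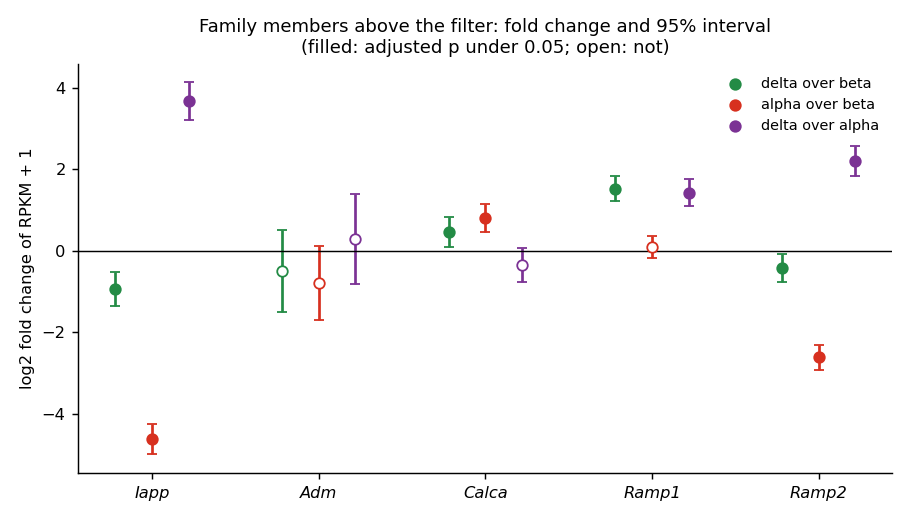
Log2 fold change of RPKM + 1 with its 95% interval (y axis) for the 5 tested members in each comparison; filled points have an adjusted p under 0.05. Iapp at -4.63 and Ramp2 at -2.62 are lowest between alpha and beta libraries, and Adm is open in all 3 comparisons.

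Sex was the other label, and alpha libraries held only 1 female library. No member was called in the sex term, where 6 of the 12700 genes were. In the interaction of cell type and sex over alpha and beta libraries 0 of 12273 genes were called by limma, and 129 had an unadjusted p under 0.05.

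Of 3 tested accessory genes of the family (Adm2, Crcp and Gpr182), 1 rose and 1 fell in delta relative to beta libraries, 1 fell in alpha relative to beta libraries and 0 were called in delta relative to alpha libraries by limma (1, Adm2, had an unadjusted p under 0.05). Their median log2 differences were -0.016, -0.08 and 0.348 in these comparisons, against 0.25, -0.02 and 0.26 over all tested genes. Of all tested genes, 37.4% were called higher and 13.3% lower in delta over beta. The shares were 23.7% and 30.3% in alpha over beta, and 32.1% and 5.89% in delta over alpha. Adm2 encodes intermedin, a peptide that acts on Calcrl with any Ramp. Adm2 had 8.81 and 4.86 RPKM in delta libraries, 1.5, 4.72 and 2.72 in alpha libraries and 55, 18.9, 37, 45.5 and 25.1 in beta libraries. All beta libraries lay above the rest, while delta and alpha libraries were close to overlapping. The log2 difference was -2.25 ± 0.387 between delta and beta (adjusted p = 0.00139 by limma), -3.35 ± 0.346 between alpha and beta (adjusted p = 4.83e-05) and 1.1 ± 0.424 between delta and alpha (adjusted p = 0.0699). Crcp, an intracellular protein linked to signalling by the CGRP receptor, was called in no comparison, at 18.8 ± 0.367 RPKM in delta, 17.9 ± 0.279 in alpha and 19 ± 1.41 in beta libraries. Gpr182, a receptor once proposed to bind adrenomedullin, was higher in delta than in beta libraries by 0.63 (adjusted p = 0.00718 by limma), at 4.26 RPKM in delta and 2.42 in beta libraries.

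The other class B1 receptors, which like Calcr and Calcrl bind peptide hormones, differed widely between the types. Of the 6 tested, 1 rose and 5 fell in delta relative to beta libraries, and 4 rose and 1 fell in delta relative to alpha libraries. In alpha relative to beta libraries 3 fell and 0 rose by limma (1, Vipr1, had an unadjusted p under 0.05). The list medians were -1.047 in delta over beta, -0.617 in alpha over beta and 1.429 in delta over alpha, against 0.25, -0.02 and 0.26 over all tested genes. In that order, 37.4% and 13.3%, 23.7% and 30.3%, and 32.1% and 5.89% of all tested genes were called higher and lower. The GLP-1 receptor gene Glp1r averaged 39.9 RPKM in delta, 2.47 in alpha and 150.5 in beta libraries. Its log2 difference was -1.82 between delta and beta (adjusted p = 3.96e-05) and -5.32 between alpha and beta (adjusted p = 3.18e-08 by limma). The glucagon receptor gene Gcgr followed the same order at 5.62, 0.264 and 15.5 RPKM in delta, alpha and beta libraries. Crhr2, a receptor for corticotropin-releasing factor peptides and urocortins, was the 1 that was higher in delta libraries, at 5.14 RPKM in delta, 0.0798 in alpha and 0.0296 in beta libraries.

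Both receptors signal mainly through the stimulatory G protein and cyclic AMP. Of 16 tested genes for cAMP transducers and receptor desensitisation, 10 rose and 2 fell in delta relative to beta libraries, 5 rose and 5 fell in alpha relative to beta libraries, and 5 rose and 3 fell in delta relative to alpha libraries. Over all tested genes the shares called higher and lower were 37.4% and 13.3%, 23.7% and 30.3%, and 32.1% and 5.89% in that order. The list medians were 0.482, 0.126 and 0.296 in the same comparisons, against 0.25, -0.02 and 0.26 over all tested genes. Gnas, the gene of the stimulatory G alpha subunit, averaged 689 ± 61.9 RPKM in delta, 771 ± 36.1 in alpha and 168 ± 13.2 in beta libraries, with log2 differences of 2.05 between delta and beta (adjusted p = 2.26e-07) and 2.23 between alpha and beta (adjusted p = 6.1e-08 by limma). The adenylyl cyclase gene Adcy8 averaged 7.42 RPKM in delta, 0.179 in alpha and 0.102 in beta libraries, and Adcy6 averaged 51.7, 41.8 and 19.9 RPKM in delta, alpha and beta libraries. Grk5, a kinase that marks active receptors for shutdown, was lower in delta than in beta libraries (log2 difference -2.11, adjusted p = 1.09e-05) and lower in alpha than in beta libraries (-1.09, adjusted p = 0.000298 by limma).

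ProIAPP is cut by the convertases Pcsk1 and Pcsk2, trimmed by Cpe and amidated by Pam. Of 6 maturation genes, 2 rose and 2 fell in delta relative to beta libraries, 3 rose and 1 fell in alpha relative to beta libraries, and 1 rose and 3 fell in delta relative to alpha libraries. Calls over all tested genes were 37.4% higher and 13.3% lower, 23.7% and 30.3%, and 32.1% and 5.89% in these comparisons. The list medians here were 0.328, 0.425 and -0.337, against 0.25, -0.02 and 0.26 over all tested genes. Pcsk1 had the widest range, at 28.8 ± 1.95 RPKM in delta, 3.16 ± 0.207 in alpha and 250 ± 52.4 in beta libraries, so it followed the order of Iapp. Its log2 difference was -3.02 between delta and beta (adjusted p = 6.26e-07) and -5.82 between alpha and beta (adjusted p = 1.49e-08 by limma). Pcsk2 was called higher in delta and in alpha than in beta libraries, at 1028 RPKM in delta, 1164 in alpha and 752 in beta libraries, and Pam averaged 522 RPKM in delta, 394 in alpha and 366 in beta libraries. Of the 4 tested peptidases that degrade amylin or related peptides, 3 rose and 1 fell in delta relative to beta libraries, all 4 fell in alpha relative to beta libraries, and 3 rose in delta relative to alpha libraries, where Bace2 did not pass (adjusted p = 0.16 by limma). Their medians were 0.583, -0.525 and 1.105, beside the same shares and medians over all tested genes. Bace2, a membrane protease, averaged 12.5 RPKM in delta, 10 in alpha and 216.7 in beta libraries, whereas Ide, the insulin-degrading enzyme, averaged 29 RPKM in delta, 11.1 in alpha and 14.7 in beta libraries.

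Of 8 factors tied to Iapp transcription, 3 rose and 2 fell in delta relative to beta libraries, 2 rose and 3 fell in alpha relative to beta libraries, and 2 rose and 1 fell in delta relative to alpha libraries. Shares of all tested genes called higher and lower were 37.4% and 13.3%, 23.7% and 30.3%, and 32.1% and 5.89% in that order. Their medians, those of the 8 factors, were -0.006, 0.074 and 0.198, against 0.25, -0.02 and 0.26 over all tested genes. Pdx1, a homeodomain factor that binds the Iapp promoter, was low in alpha libraries. It had 70 and 78.2 RPKM in delta libraries, 5.08, 3.36 and 3.07 in alpha libraries and 86, 121, 85.6, 98.8 and 93 in beta libraries. The delta libraries lay just under the beta range and the alpha libraries far under it. Its log2 difference was -0.36 ± 0.178 between delta and beta (adjusted p = 0.115), -4.33 ± 0.16 between alpha and beta (adjusted p = 7.48e-08) and 3.97 ± 0.195 between delta and alpha (adjusted p = 9.45e-07 by limma). Isl1, a LIM homeodomain factor, was highest in delta libraries, at 178 ± 0.885 RPKM in delta, 79 ± 4.83 in alpha and 41.5 ± 9.41 in beta libraries. Nkx6-1, another homeodomain factor, averaged 6.78 RPKM in delta, 8.88 in alpha and 97 in beta libraries.

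The genes whose log2(RPKM + 1) ran most nearly parallel to each member over the 10 libraries were taken from 8753 genes with a mean of at least 5 RPKM. These correlations mainly carry the 3 cell types, except for Adm, whose values overlapped between each pair of types. All are given as a description. For Iapp they were Cabp1 (Pearson r = 0.995), Hadh (0.994) and Enho (0.993). Cabp1 averaged 13.3 RPKM in delta, 0.979 in alpha and 26.2 in beta libraries. For Ramp1 they were Epcam (0.988), Ptprz1 (0.982) and Nrsn1 (0.982), and Ptprz1 averaged 44.2 RPKM in delta, 0.739 in alpha and 0.235 in beta libraries. For Ramp2 they were Pdyn (0.995), Carkd (0.995) and Rspo4 (0.993), with Pdyn, the prodynorphin gene, at 94.5 RPKM in delta, 2.94 in alpha and 164 in beta libraries. Adm was nearest to P4ha1 (0.944), Pfkl (0.924) and Bnip3 (0.916), and Calca to Scg5 (0.939), Fam120aos (0.932) and Pdgfrl (0.931). P4ha1 averaged 62.1 RPKM in delta, 44.8 in alpha and 62.4 in beta libraries.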

How the data were processed

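The authors deposited 1 table of RPKM values for 10 libraries. Their processing notes name GRCm38.p3, edgeR 3.12.0, featureCounts and STAR 2.4, per the labels, without the annotation or the rule for reads that fit several genes. RPKM are shares of a library, so abundant transcripts lower the rest: 7 hormone genes took 9.81% and 10.6% of reads in delta, 27.5% to 30.9% in alpha and 17.6% to 31.8% in beta libraries. Library totals and reads per gene were recovered from the steps of low RPKM values in 955 genes. Since lengths were fitted to give whole reads, whole values are no check of the totals.

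The tests used limma 3.58.1 (R 4.3.3) on log2(RPKM + 1), with a mean-variance trend. A single model held the 10 libraries, with terms for cell type and for sex. Fold changes on this scale understate those of low genes. Genes with at least 1 RPKM in at least 2 libraries (12700) were tested, adjustment over them followed Benjamini and Hochberg, and a gene was called under 0.05. The fit was tested on simulated data. Exact Poisson-based intervals cover counting error only. The members and gene lists were chosen with earlier results of these data known. The named genes were all members, short lists in full or their largest called changes, markers, and the 3 genes most like each tested member; Slco1a5 and Vps25 were added after their values had been seen, because they overlap members. Alternatives were no filter, a filter of 1 RPKM in every library of a cell type, a pseudocount of 0.1, median-ratio and quantile scaling, no trend, no sex term, each library left out, hormone reads left out of the totals, and a replicate block in place of the sex term. Coordinates are from GENCODE on GRCm38, 1-based, matched by symbol.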

Additional observations from a re-analysis of the deposited data

Results flagged for a closer look

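Among the 5 beta libraries, 1 library stood far from the other 4 for 3 of the 43 genes examined, by Dixon's ratio with a critical value of 0.71. A test at this level flags a small share of groups by chance alone, about 1 in 20, so 3 flags in 43 is near that share. Ramp1 was low in beta replicate 2 at 0.488 RPKM, on 36 reads. Ece1, an endothelin-converting peptidase, was high in the same library at 162 RPKM. Arrb2, a beta-arrestin gene, was low in beta replicate 4 at 12.9 RPKM. The cause of these values was not tested.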

How the results depend on the processing

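The cell types share no replicate number, but title numbers are adjacent for 4 pairs of 1 sex (delta 1 with beta 1, delta 2 with beta 2, alpha 2 with beta 3, alpha 3 with beta 5). That they mark shared islets is not stated. Deviations from the group means correlated at 0.001, 0.372, 0.269 and 0.464 within these pairs, and 3 of the 4 correlated best with their own beta library. A replicate block on them was chosen after seeing the data and left 2 residual degrees of freedom. It called 1 member, Ramp1, higher in delta than in beta. Calca (0.529) lost its call there, with an adjusted p of 0.0582 by limma, and Adm turned to 0.039. In alpha over beta the block added Adm as lower, and the block changed no other call of the 5 tested members.

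The differences of Ramp1 in delta over beta and over alpha kept their direction and call under every alternative run. So did those of Ramp2 in delta over alpha, and of Iapp, Calca and Ramp2 in alpha over beta. Over the 5 tested members, 3 comparisons and 19 alternatives, 22 of 285 values lost the call and 6 gained it with the direction kept. Another 8 reversed, whatever their call, and the others kept direction and call. Those 8 include Iapp and Calca in delta over beta after quantile scaling, which also lost their calls.

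With a pseudocount of 0.1, 1 member was called lower in delta than in beta. With no filter this count was also 1, 2 members were called higher in alpha than in beta, and 1 was called lower in delta than in alpha. Median-ratio scaling gave 3120 genes higher and 3096 lower, and 1 member higher, in delta over beta; in delta over alpha it gave 1846 genes higher, 1324 lower and 1 member lower. Quantile scaling gave 2852 genes higher and 3200 lower, and 1 member each way, in delta over beta, and 1963 higher, 2040 lower and 1 member lower in delta over alpha. It reversed Iapp (0.096) and Calca (-0.011) in delta over beta and Ramp1 in alpha over beta (-0.092). The Iapp value rests on ranks near the top of each library, as described above, and cannot show the gap in level. Leaving hormone reads out of the totals, an alternative chosen after seeing the data, gave 2853 genes lower and 1 member higher in delta over beta, and 1893 higher, 1461 lower and 1 member lower in delta over alpha. Causes were not tested.

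With 1 library left out, genes called in delta over beta numbered 1974 to 4990 higher and 907 to 1671 lower, those in delta over alpha 1850 to 4597 higher and 462 to 786 lower, and those higher in alpha over beta 1806 to 3219. The low ends came without delta replicate 1 or 2, or, in alpha over beta, without alpha replicate 3; a single delta library was then assumed to vary like the other types. Members called in delta over beta numbered 1 to 2 in each direction, and those lower in delta over alpha 0 to 1. Adm ran from -1.218 to 0.269 in delta over beta and from -0.509 (without delta replicate 1) to 0.978 in delta over alpha, where it was -0.025 without alpha replicate 1. Calca in delta over alpha ran from -0.665 to 0.015. Members under 1 RPKM rest on at most 29 reads a library, so small differences among them were not detectable.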
